A study of Canis lupus familiaris with 5 samples.

Results

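The locus described here is a stretch of dog chromosome 14 (build CanFam3.1, 55437590 to 55824629, 387 kb) that holds 8 of the 32220 gene models in the count table of the series. The stretch was chosen by position around a run of neighbouring models that fell in induced pluripotent stem cells (iPSCs), taken here as relative to fibroblasts. The values in that comparison thus picked the members, and they are given below as a description of the locus and not as a test of it. The comparisons that involve iNSLCs share either the iPSC libraries or the fibroblast library with it and are not independent of that choice.

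The series followed cells of 1 adult dog (named K9) through reprogramming by mRNA sequencing, in 5 libraries. The fibroblast library came from ear skin cells at passage 1. The iNSLC library, at passage 2, was made from induced neural stem cell-like cells. These formed the first colonies after such fibroblasts were transfected with episomal vectors (the EP-B set, for OCT4, SOX2, KLF4, L-MYC, LIN28, a dominant-negative mouse p53, EGFP, KLF2, NANOG, GLIS1 and KDM4D) and grown in NSM, a medium made for naive-state stem cells. The 3 iPSC libraries came from clones that emerged once the culture was changed to ESM, a medium for embryonic stem cells, at passage 9 for clone 1 and passage 8 for clones 2 and 3. All groups thus share the genome of 1 animal, each iPSC library is 1 clone, and passage cannot be told apart from stage. Depth was 33280017 counts in the fibroblast library, 11699186 in the iNSLC library and 20021139 to 34317091 in the iPSC libraries. The labelled cell types could not be checked against marker genes, since the files carry Ensembl IDs that were paired with no symbol here.

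The members are therefore called by their IDs. A RefSeq gene table of another dog assembly (UU_Cfam_GSD_1.0) carries no Ensembl IDs, so the 8 models could not be looked up in it. It was used for gene order alone. In that assembly the protein-coding genes TES, CAV2, CAV1, MET, CAPZA2 and ST7 follow each other on chromosome 14. CAV1 and CAV2 are caveolins, the membrane proteins that form the coat of caveolae, small pits of the plasma membrane that are abundant in fibroblasts, endothelial cells and fat cells. MET is the receptor tyrosine kinase for hepatocyte growth factor, and CAPZA2 is a subunit of the protein that caps actin filaments. Whether and how these genes correspond to the 8 models could not be verified from the files, so no model is given a name or a role.

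Of the 8 models, 5 had counts and 3 had 0 counts in every library. From the left, ENSCAFG00000003402 (plus strand, 55437590 to 55458776) has 2984 bases of exon. ENSCAFG00000030167 (minus strand, 55461064 to 55462578) is a single exon of 1515 bases. ENSCAFG00000003404 (plus strand, 55461084 to 55492691) has 537 bases in 3 exons. After a gap of 106 kb follows ENSCAFG00000003406 (plus strand, 55598660 to 55712194), the longest model, with 7337 bases of exon in 21 separate blocks. ENSCAFG00000003408 (plus strand, 55763586 to 55824629) closes the stretch with 2329 bases in 10 exons. The models with no count, ENSCAFG00000032850, ENSCAFG00000037603 and ENSCAFG00000021975, lie side by side between the last pair, are 135 to 1072 bases long in exons and are all on the plus strand. A count of 0 allows up to 3 counts, which in CPM (counts scaled to a common library size of 1000000) is 0.117 CPM in fibroblasts, 0.262 CPM in iNSLCs and 0.0810 to 0.134 CPM in iPSCs, so expression under these levels was not detectable at this depth.

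Reads at the left end of the locus are not fully separable. ENSCAFG00000030167 lies opposite the start of ENSCAFG00000003404 and shares 195 bases of exon with it. These lie in 2 of the 3 exons of ENSCAFG00000003404 and make up 36.3% of its exon length, and 12.9% of that of ENSCAFG00000030167. No source used here gives the strand setting of the count, so reads within these shared bases cannot be told apart. In counts, ENSCAFG00000030167 had 9.09% of the level of its partner in fibroblasts (595 against 6549) and 6.40% in iNSLCs (8 against 125). In the iPSC clones it had 0 counts, where its partner had 33, 28 and 20.

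Most of the difference between fibroblasts and iPSCs at the locus was already present in iNSLCs. The 8 models together took 0.0828% of all counts in fibroblasts (Clopper-Pearson 95% interval 0.0818 to 0.0838%), 0.0165% in iNSLCs (0.0157 to 0.0172%) and 0.0184 ± 0.0028% in iPSCs (SD, n = 3). Without ENSCAFG00000003408 the shares were 0.0570% in fibroblasts, 0.00431% in iNSLCs and 0.00206 ± 0.00065% in iPSCs (SD, n = 3). The share of the whole locus in iPSCs was thus near that of iNSLCs through this last model, while the others together took a lower share in each clone (0.00133 to 0.00260%) than in iNSLCs. These are bulk libraries, in which fewer cells of a type and less RNA per cell cannot be told apart. Fibroblasts and iNSLCs are represented by a single library each, without replicate error, and intervals cover counting error only.

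ENSCAFG00000003402 had 355 CPM in fibroblasts, 20.3 CPM in iNSLCs, and 6.03, 6.85 and 3.65 CPM in iPSC clones 1, 2 and 3. CPM values throughout are scaled with TMM factors, which adjust library sizes for composition. Every clone was below the iNSLC library, which was itself far below the fibroblasts. The iPSC mean was 5.51 ± 1.67 CPM (SD, n = 3), and the clones lay at 1.03 to 1.93% of the fibroblast level.

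ENSCAFG00000003404 had 256 CPM in fibroblasts, 10.9 CPM in iNSLCs, and 1.02, 1.25 and 0.540 CPM in the clones. This was the steepest fall among the models that were detected in every library, with clones at 0.211 to 0.487% of the fibroblast level. The iPSC mean was 0.936 ± 0.361 CPM (SD, n = 3) and rested on 33, 28 and 20 counts, so the spread between these clones includes much counting error.

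ENSCAFG00000030167, the model on the opposite strand, stood at 23.2 CPM in fibroblasts, at 0.698 CPM in iNSLCs, and at 0 CPM in all 3 clones. With each clone set to the floor of 3 counts, it was 227-fold lower in iPSCs than in fibroblasts and 6.81-fold lower than in iNSLCs. These values are not lower bounds, since they leave out the counting error of the other library. From the 0 counts of clones 1, 2 and 3, the counting intervals of the fold began at 203, 141 and 232 against fibroblasts. Against iNSLCs they began at 4.82, 3.35 and 5.51, and rest on 8 counts in iNSLCs.

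ENSCAFG00000003406 had 108 CPM in fibroblasts, 12.0 CPM in iNSLCs, and 13.4, 15.1 and 8.19 CPM in the clones. Unlike the 3 models to its left, it had the iNSLC level already within the range of the clones, which lay between 0.680 and 1.25 times that level. The mean over clones was 12.2 ± 3.60 CPM (SD, n = 3).

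ENSCAFG00000003408 had 335 CPM in fibroblasts, 124 CPM in iNSLCs, and 174, 141 and 133 CPM in the clones. It fell least, to 39.8 to 51.9% of the fibroblast level in iPSCs, and every clone was above the iNSLC library. The mean over clones was 149 ± 21.5 CPM (SD, n = 3).

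**Figure D1:**
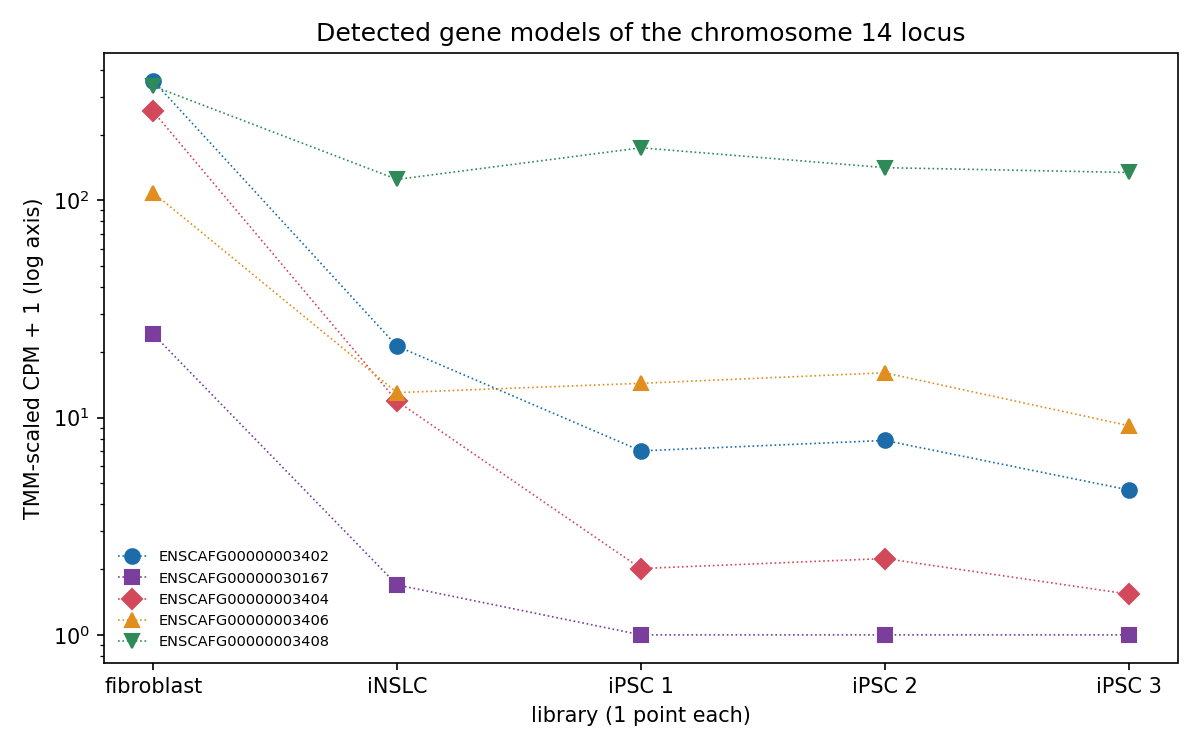
TMM-scaled CPM plus 1 (log axis) of the 5 detected models of the locus, with 1 point per library and dotted lines that only join the points of a model. ENSCAFG00000003402 lies at 355 CPM in fibroblasts, 20.3 CPM in iNSLCs and 3.65 to 6.85 CPM in the iPSC clones, while ENSCAFG00000003408 stays at 124 CPM or more in every library and ENSCAFG00000030167 is at 0 CPM in each clone.

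Among the 4 models with counts in iPSCs, clone 3 had the lowest value of each. The spread between clones, as a coefficient of variation, was 30.2% for ENSCAFG00000003402, 38.5% for ENSCAFG00000003404, 29.4% for ENSCAFG00000003406 and 14.4% for ENSCAFG00000003408. The order of the clones was the same for the 3 low models, with clone 2 highest, and differed for ENSCAFG00000003408, where clone 1 was highest. These differences between clones were not tested.

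In the comparison of iPSCs with fibroblasts, which chose the locus, all 5 models that could be tested were called lower by edgeR's quasi-likelihood test at an adjusted p under 0.05. Over all 17479 genes tested, 14.3% were called lower. ENSCAFG00000030167 passed the filter on low counts only through the fibroblast and iNSLC libraries, and nothing is read from the count of calls. Fitted log2 fold changes were -6.01 (standard error 0.402) for ENSCAFG00000003402, -8.11 (0.484) for ENSCAFG00000003404, -3.14 (0.412) for ENSCAFG00000003406 and -1.17 (0.295) for ENSCAFG00000003408. For ENSCAFG00000030167 the fitted value depends on the prior count, and the value at the floor given above stands in its place. The median over the 5 models was -6.01, also with that model at its floor value, against 0.27 over all genes tested. ENSCAFG00000003408 was called at an adjusted p of 0.0331 (edgeR, all clones below the fibroblast library), and this call was lost without clone 1 (adjusted p = 0.0847), without clone 3 (adjusted p = 0.0665) and with library size as the only scaling (adjusted p = 0.131, log2 fold change -0.65). It was also lost at a threshold of 0.01. The other 4 models were called in each alternative in which they were tested, at adjusted p values up to 0.0328.

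The comparison of iPSCs with iNSLCs asked whether the locus was lower still in the clones than in the iNSLC library. By its title, that library shares its number with clone 1 only. The 3 models at the left end were called lower in iPSCs and the 2 at the right were not called. That makes 3 of the 5 models tested, beside 7.71% of all genes tested. Nothing is read from this count, because it uses the iPSC libraries whose low values chose the locus and includes ENSCAFG00000030167, which passed the filter only through the other libraries. For ENSCAFG00000003402 the log2 fold change was -1.89 (standard error 0.399, edgeR adjusted p = 0.0380, range over alternatives 3.33e-05 to 0.0847, lower in 3 of 3 clones). It was -3.56 for ENSCAFG00000003404 (standard error 0.456, edgeR adjusted p = 0.0110, range over alternatives 2.33e-12 to 0.0655, lower in 3 of 3 clones). ENSCAFG00000030167 was called as well (edgeR adjusted p = 0.0340, range over alternatives 1.61e-05 to 0.103). It had 8 counts in iNSLCs and 0 in each clone, and it passed the filter only through the fibroblast and iNSLC libraries, so this call supports nothing. The call was also lost without clone 3 (edgeR adjusted p = 0.103). ENSCAFG00000003406 had a log2 fold change of 0.02 (standard error 0.463, edgeR adjusted p = 0.981), with 1 of 3 clones below the iNSLC library. ENSCAFG00000003408 had 0.27 (standard error 0.319, edgeR adjusted p = 0.593), with 0 of 3 clones below it. The median of the 5 models was -1.89 and that of all genes tested 0.20. The call of ENSCAFG00000003402 was lost with limma-voom (adjusted p = 0.0729) and with library size as the only scaling (adjusted p = 0.0528). Without clone 3 edgeR called 0 of the 5 models lower and 0 of all genes in either direction, with 3 models and 4863 genes at an unadjusted p under 0.05. DESeq2 then called 3 of the models and limma-voom 0. The edgeR log2 fold changes of ENSCAFG00000003402 and ENSCAFG00000003404 without clone 3 were -1.73 (adjusted p = 0.0847) and -3.34 (adjusted p = 0.0655).

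Between iNSLCs and fibroblasts, at the first step, there was 1 library per group and no test was made. A ratio of 4 or more, with the higher library reaching 10 CPM, was found for 4 of the 5 detected models, which were lower in iNSLCs. Of the 10237 genes that reached 10 CPM in either library, 5.69% were lower by as much. From this count, too, nothing is read, because it uses the fibroblast library of the comparison that chose the locus. It also includes ENSCAFG00000030167, which reached 10 CPM only in fibroblasts. ENSCAFG00000003404 was 23.4-fold lower in iNSLCs than in fibroblasts (counting interval 19.6 to 28.2), and ENSCAFG00000003402 was 17.5-fold lower (15.3 to 20.0). ENSCAFG00000030167 was 33.3-fold lower with a wide interval of 16.8 to 77.5, and ENSCAFG00000003406 was 8.94-fold lower (7.53 to 10.7). ENSCAFG00000003408 was 2.70-fold lower (2.55 to 2.86) and did not reach the ratio of 4.

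The models can be placed between the end stages by their iNSLC level, as the percentage of the way from the fibroblast level to the iPSC mean on the scale of log2(CPM + 1). ENSCAFG00000003404 lay at 62.7% and ENSCAFG00000003402 at 69.9%, short of the iPSC level. No position is given for ENSCAFG00000030167, since its counts in the clones are 0 and the value would be set by the added 1. The added 1 also weighs on the position of ENSCAFG00000003404, whose iPSC mean was 0.936 CPM. ENSCAFG00000003406 lay at 99.4% and ENSCAFG00000003408 at 122%, past the iPSC level. The iNSLC level of the right pair was thus nearer to the iPSC mean or past it. The difference between the left and the right models was not tested.

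**Figure D2:**
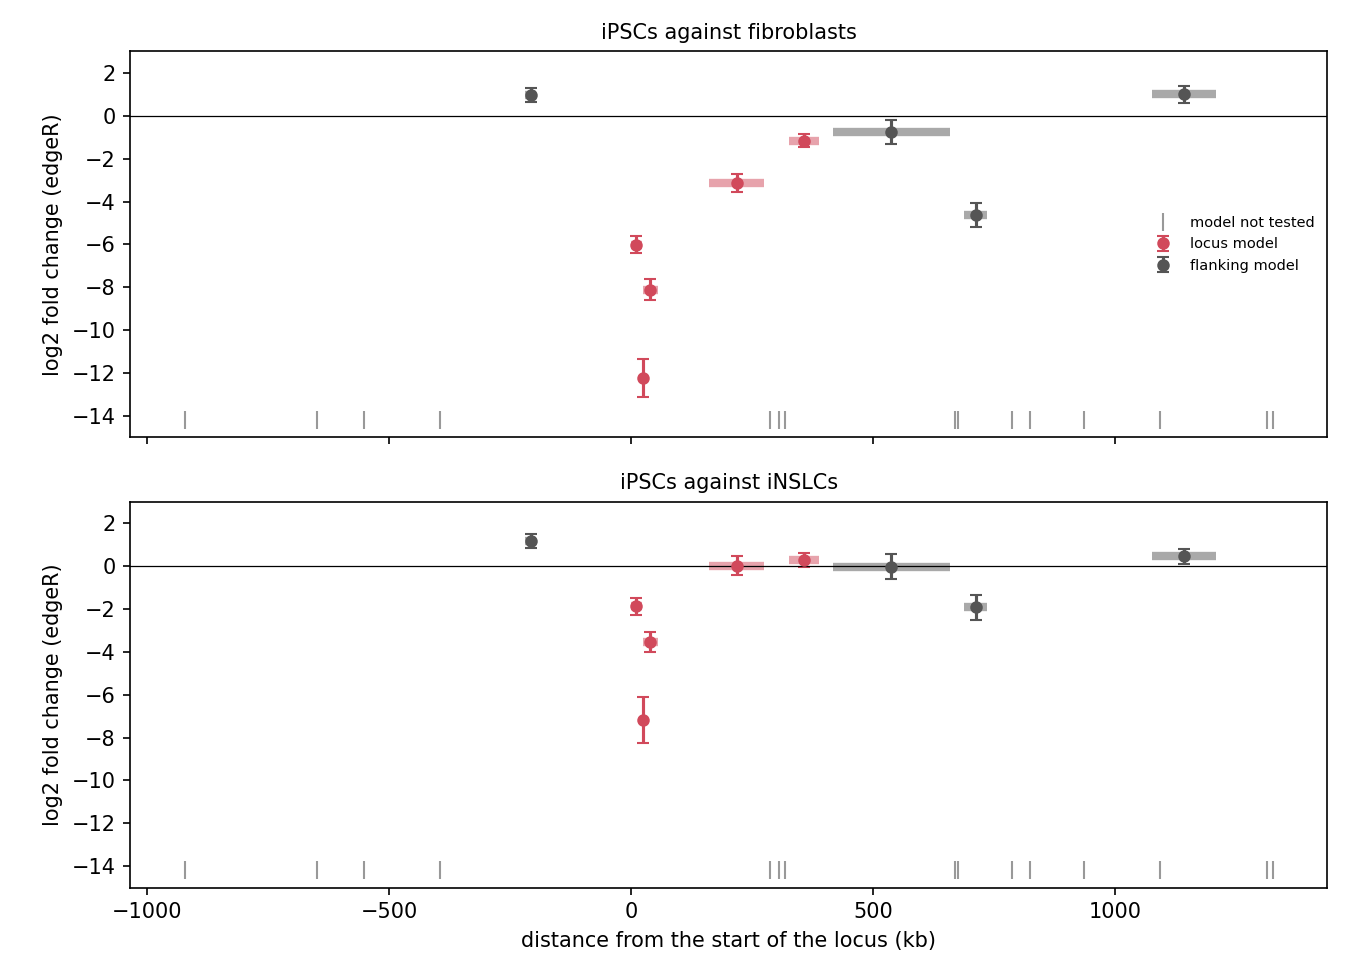
Fitted log2 fold change (points, with standard errors) of each tested model against its distance in kb from the start of the locus, for iPSCs against fibroblasts (upper panel) and iPSCs against iNSLCs (lower panel), where pale bars give the span of a model and ticks mark models that were not tested. ENSCAFG00000030167, whose point depends on the prior count, and ENSCAFG00000003404 lie lowest in both panels, and the locus models at the right lie near 0 against iNSLCs (0.02 and 0.27).

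Levels were compared between models per kb of exon. In fibroblasts ENSCAFG00000003404 was the highest, at 476 CPM per kb, followed by ENSCAFG00000003408 at 144, ENSCAFG00000003402 at 119, ENSCAFG00000030167 at 15.3 and ENSCAFG00000003406 at 14.7 CPM per kb. Among genes with a count in the fibroblast library, 98.9% had a level per kb no higher than that of ENSCAFG00000003404, and the corresponding percentiles were 96.1 for ENSCAFG00000003408 and 95.2 for ENSCAFG00000003402. In iNSLCs the order was ENSCAFG00000003408 at 53.2 CPM per kb, ENSCAFG00000003404 at 20.3, ENSCAFG00000003402 at 6.81, ENSCAFG00000003406 at 1.64 and ENSCAFG00000030167 at 0.461 CPM per kb. The model that led in fibroblasts was thus overtaken by ENSCAFG00000003408 at the colony stage.

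In iPSCs the levels of 3 models came together. The means over clones were 1.85 CPM per kb for ENSCAFG00000003402, 1.74 for ENSCAFG00000003404 and 1.67 for ENSCAFG00000003406, which differed by less than the spread of each model between clones. The ratio of ENSCAFG00000003402 to ENSCAFG00000003404 per kb was 0.250 in fibroblasts, 0.335 in iNSLCs, and 1.06, 0.990 and 1.21 in the clones. The ratio of ENSCAFG00000003404 to ENSCAFG00000003406 was 32.5 in fibroblasts, 12.4 in iNSLCs, and 1.04, 1.13 and 0.902 in the clones. The ratio of ENSCAFG00000003402 to ENSCAFG00000003406 was 8.11 in fibroblasts, 4.15 in iNSLCs, and 1.11, 1.12 and 1.10 in the clones. Within each clone the last ratio was slightly above equality, while the other pairs fell on both sides of it. In clones 1, 2 and 3 it rests on 195, 154 and 135 counts of ENSCAFG00000003402. ENSCAFG00000003406 had 433, 339 and 303 counts there. No counting interval was made for these ratios, and whether they differ from equality was not tested. The 3 models held percentiles of 39.6 to 44.7 among genes with a count in the iPSC libraries. ENSCAFG00000003408 stood apart with 64.1 CPM per kb and percentiles of 92.8 to 94.5. The exon length of ENSCAFG00000003404 is a multiple of 3, and whether its model leaves out untranslated exon sequence could not be checked, so its level per kb may not be on the same footing as that of the others. Its overlap with ENSCAFG00000030167, 36.3% of its exon length, is a further limit on this level and on its ratios.

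**Figure D3:**
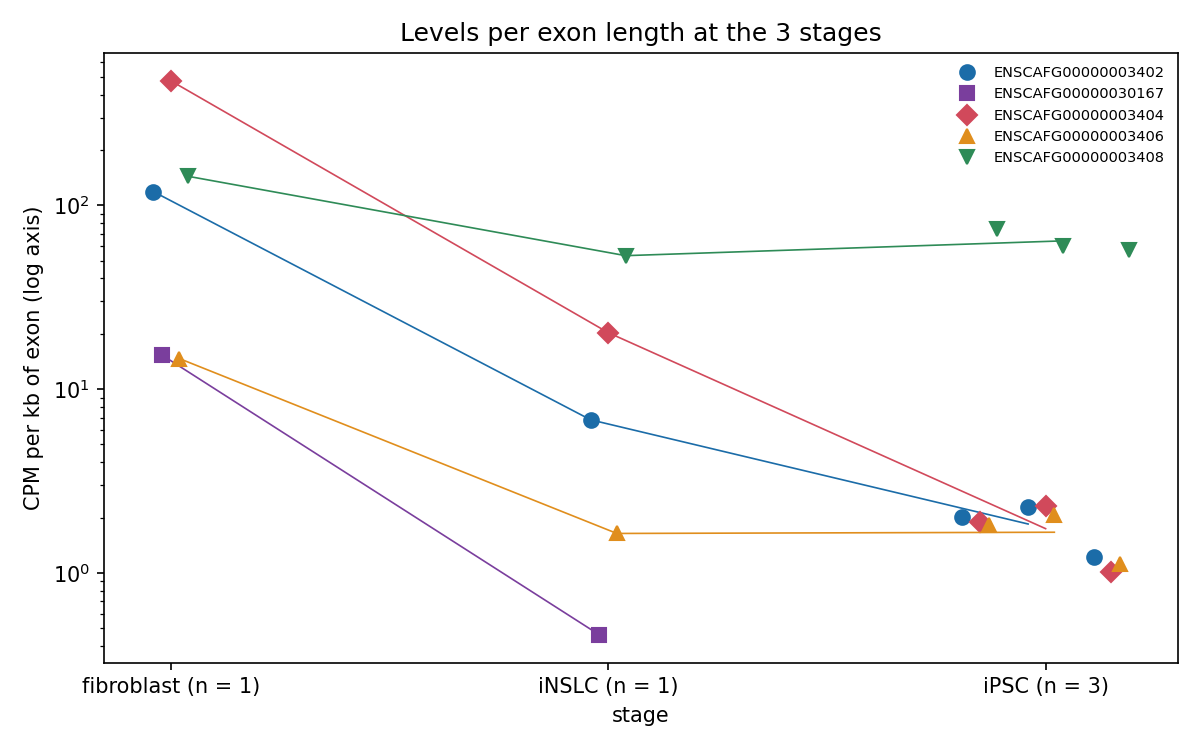
CPM per kb of exon (log axis) of the 5 detected models at the 3 stages, with 1 point per library and lines through the mean of each stage. ENSCAFG00000003402, ENSCAFG00000003404 and ENSCAFG00000003406 differ widely in fibroblasts (119, 476 and 14.7 CPM per kb) and lie together in iPSCs (1.85, 1.74 and 1.67), and ENSCAFG00000030167 has no point in iPSCs because its counts there are 0.

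The nearest models outside the edges were not called by edgeR with TMM scaling in either comparison. On the left, 196 kb before ENSCAFG00000003402, ENSCAFG00000003399 had 76.7 CPM in fibroblasts, 67.1 CPM in iNSLCs, and 157, 159 and 131 CPM in the clones. Against fibroblasts it had a log2 fold change of 0.96 (standard error 0.322, edgeR adjusted p = 0.0717, above them in 3 of 3 clones). It was called higher there by DESeq2 (adjusted p = 0.0457), and by edgeR with the upper quartile (adjusted p = 0.0421) and with library size only (adjusted p = 0.0228). Against iNSLCs its log2 fold change was 1.15 (edgeR adjusted p = 0.0752), and DESeq2 called it higher (adjusted p = 0.0293). On the right, 28.6 kb after ENSCAFG00000003408, ENSCAFG00000003410 had 43.1 CPM in fibroblasts, 26.3 CPM in iNSLCs, and 26.3, 13.3 and 37.5 CPM in the clones. Its log2 fold change against fibroblasts was -0.75 (standard error 0.573, edgeR adjusted p = 0.354, lower in 3 of 3 clones). That value lies within 1 standard error of the -1.17 of ENSCAFG00000003408 just inside, and the difference was not tested.

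Within 1 Mb on each side lie 16 flanking models that the rule did not take. Of these, 7 had a count and 4 could be tested. Against fibroblasts 1 of the 4 was called, where 28.0% of all genes tested were called in either direction. It was ENSCAFG00000032267 (minus strand, 56124531 to 56172733), whose CPM value was 13.7 in fibroblasts, 2.09 in iNSLCs, and 0.495, 0.712 and 0.459 in the clones. It had a log2 fold change of -4.63 (standard error 0.546, edgeR adjusted p = 0.00362, lower in 3 of 3 clones). It is thus a model outside the locus that followed a course like that of its left end, with ENSCAFG00000003410, which was not called, in between. Against iNSLCs edgeR called 0 of the 4 flanking models, where 11.2% of all genes tested were called. At an unadjusted p under 0.05 there were 2 (ENSCAFG00000003399, higher, and ENSCAFG00000032267, lower), DESeq2 called 1 (ENSCAFG00000003399) and limma-voom 0. Without clone 2 edgeR called ENSCAFG00000032267 lower (adjusted p = 0.0157). The median log2 fold change of the 4 flanking models was 0.11 against fibroblasts and 0.21 against iNSLCs, where over all genes it was 0.27 against fibroblasts and 0.20 against iNSLCs.

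The genes most like the locus were sought by the correlation of their log2(CPM + 1) with the mean of the 5 called models over the 5 libraries. Of 11091 genes outside the locus that passed the filter and reached 10 CPM, 66 had a Pearson r above 0.99. With so few libraries and 1 of them far above the rest, such values are a description of shape alone. The closest were both on chromosome 8. ENSCAFG00000015728 (36819961 to 36933797) had 13.9 CPM in fibroblasts, 2.18 CPM in iNSLCs, and 1.30, 1.29 and 0.9996 CPM in the clones. ENSCAFG00000011868 (4098867 to 4112273) had 311 CPM in fibroblasts, 112 CPM in iNSLCs, and 84.3, 90.9 and 75.2 CPM in the clones. Their profiles have the shape of the locus mean at different levels and with smaller folds than its left end. The 5 models are themselves part of that mean and the outside genes are not, so the r values of the 2 sets are not on the same footing. With the same mean, r was 0.997 for ENSCAFG00000003402 and 0.994 for ENSCAFG00000030167. It was 0.988 for ENSCAFG00000003404, 0.968 for ENSCAFG00000003406 and 0.893 for ENSCAFG00000003408, below the 0.99 used for outside genes. The mean is thus not the shape of each model of the locus.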

How the data were processed

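The deposited tables hold raw counts for each gene model, not normalized. The submitters' processing notes name featureCounts 1.5.2, STAR 2.5.3a, Trim Galore 0.4.0 and the build CanFam3.1. Not given in the sources used here were settings for strand, read pairs and multiple mapping. The per-library tables held the same counts as the series table (0 differing values). Among counts of 1 to 10, 59.6 to 74.0% were even, which would follow if both mates of a pair were counted, and counting intervals would then be too narrow. Whether mouse feeder cells, which the reprogramming method uses, added reads was not tested.

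The members and lists were chosen with earlier results of these data known. Groups came from the sample titles. All 5 libraries were fitted as 3 groups in edgeR 4.0.16 under R 4.3.3 (TMM, filterByExpr, quasi-likelihood test, Benjamini-Hochberg adjusted p under 0.05 over 17479 genes). The spread came from the 3 clones (2 residual degrees of freedom), and the lone libraries were assumed to vary like them. As the clones are from 1 dog, p-values set each lone library against the spread between clones and carry no variation between dogs. Standard errors are the log2 fold change divided by the square root of F. Levels are TMM-scaled CPM over tested genes, and the floor was 3 counts. Named were all members, the nearest model on each side, the 2 genes closest in profile and, after its values were seen, the 1 flanking model called. Lists of markers, caveolae genes and MET pathway genes were not analysed, as the RefSeq table carries no Ensembl IDs and the 32220 IDs could not be matched to it. Alternatives used DESeq2 1.42.0, limma 3.58.1, other scalings and filters, halved counts, a stricter threshold, and each clone left out.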

Additional observations from a re-analysis of the deposited data

How the results depend on the processing

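The count of members called lower in iPSCs than in fibroblasts was 5 and stayed between 4 and 5 in all alternatives, and that of members at least 4-fold apart between iNSLCs and fibroblasts was 4, and 3 with a minimum of 50 CPM. At a ratio of 2 it was 5. Members called lower in iPSCs than in iNSLCs numbered 3, and between 0 and 3 when a clone was left out, with 0 at an adjusted p under 0.01. Flanking models called against fibroblasts numbered 1, but 2 with the upper quartile, 3 with library size only and 2 with DESeq2. Against iNSLCs they numbered 0, but 1 with DESeq2 and between 0 and 1 without a clone. Over all genes, at an adjusted p under 0.01, 1084 were lower and 1726 called against fibroblasts, and 308 lower and 324 called against iNSLCs. DESeq2 called 3480 against iNSLCs, against 1961 with edgeR. Leaving out a clone gave 1519 to 3270 lower and 2779 to 6906 called against fibroblasts, and 0 to 2604 lower and 0 to 4159 called against iNSLCs, the lowest each time without clone 3. The cause was not tested. Against fibroblasts, the log2 fold changes of all genes had their median at 0.27 under TMM, 0.22 under DESeq2 size factors, 0.78 under library size only and 0.47 under the upper quartile, and changes have to be read against that shift. With at least 10 counts in 3 libraries required, ENSCAFG00000030167 was not tested and the median of the members was -4.59 against fibroblasts and -1.01 against iNSLCs. No member's call was reversed. Over members and alternatives, 106 single values kept their side of the threshold and 12 lost it, these 12 with the same direction. Among the 106 are values of ENSCAFG00000003406 against iNSLCs, not called, whose log2 fold change ran from -0.221 to 0.190 and so changed sign. The sample titles give the same number to the iNSLC library and iPSC clone 1, and none to the fibroblast library. Whether this marks a shared lineage could not be checked. No paired analysis was possible because the groups compared share fewer than 2 replicate numbers.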
